A study of Mus musculus with 6 samples.

Results

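The T cell receptor alpha and beta V segments were followed in lymph node T cells of pregnant mice. Members were all genes of the count table whose symbols start with Trav or Trbv. There were 93 of these among 14125 genes, 70 of the alpha locus and 23 of the beta locus. They were read in 4833 T cells of 5 annotated classes, CD4+ Naive T (1703 cells), CD4+ Mem T (533), CD4+ Treg (328), CD8+ Naive T (1918) and CD8+ Mem T (351). The first 3 classes are called the CD4 lineage here (2564 cells) and the last 2 the CD8 lineage (2269 cells). Of the 93 segments, 58 (20 Trbv and 38 Trav) had enough counts for a test in at least 1 comparison, and the other 35 had at most 161 UMIs each over all 4833 cells. A UMI is a molecular barcode, so that a UMI count is a count of captured RNA molecules.

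The cells came from 4 Aire-DTR dams (mice 4, 7, 8 and 36) and 3 WT dams (mice 1, 6 and 97). In Aire-DTR mice the diphtheria toxin receptor is driven by Aire, a gene of thymic epithelium and of a few peripheral cells, so that the toxin removes Aire-expressing cells. All 7 dams, WT included, were mated to BALB/c males and received the toxin over the first 9 days of pregnancy, and uterine-draining (udLN) and brachial (brLN) lymph nodes were taken at embryonic day 9.5. No source used here gives the strain of the dams. Mouse 4 is entered as having resorbed its pregnancy, and mice 7, 8 and 36 as IUGR (restricted fetal growth). Mice 8 and 6 shared pool 1, mice 36 and 97 pool 2, and mice 4, 7 and 1 pool LN, each pool being loaded into 2 wells of a droplet-based single-cell run. The mouse is the replicate throughout.

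The first well of pool LN stood in the deposited matrix 2 times, with 2127 barcodes and identical counts, so the 9427 deposited cells were 7300 different ones with 22833288 UMIs, and each was counted 1 time here. Barcodes shared between different wells numbered 208 (419 cells). Of 52 pairs of T cells that shared a barcode between wells and both had a leading Trbv segment of at least 3 UMIs, 2 had the same segment. Cd4 UMIs were found in 44.7% of CD4+ Naive T and 0.782% of CD8+ Naive T cells, Cd8b1 UMIs in 98.6% of CD8+ Naive T, 8.75% of CD4+ Naive T and 19.1% of CD4+ Mem T cells, and Foxp3 UMIs in 55.2% of CD4+ Treg, 15.6% of CD4+ Mem T and 1.23% of CD4+ Naive T cells. The protocol names a sort on CD45 and CD3 and the design text one on CD45, and B cells made up 2267 of the 7300 cells by annotation. Cd79a, a B cell gene, had UMIs in 98.3% of B cells and in 2.50% to 2.99% of naive T cells. Sums of 1 lineage and node of a mouse held 28 to 422 cells. The udLN of mouse 97, with 9 CD4 and 16 CD8 T cells, was left out of udLN comparisons, which therefore had 4 Aire-DTR and 2 WT mice.

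As background, a T cell receptor is a pair of an alpha and a beta chain. In the thymus a V segment is joined to a J segment in the alpha locus, and to a D and a J segment in the beta locus, and the joined V segment then supplies the start of the chain's messenger RNA. A V segment encodes the loops of the chain that mostly touch the MHC molecule, while the joint encodes the loop that mostly touches the peptide. CD4 T cells see peptides on MHC class II and CD8 T cells on MHC class I. A cell normally makes 1 functional beta chain, whereas many cells carry rearrangements on both copies of the alpha locus. In mice the alpha locus also holds large repeated blocks of near-identical V segments, marked d and n in the symbols, and segments with dv in the symbol can be used by the delta chain of gamma delta T cells as well.

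All 93 symbols matched a GENCODE M21 gene on build GRCm38. The Trav genes lay on chromosome 14 between 52427928 and 53876752, and the Trbv genes on chromosome 6 between 40891229 and 41558452. Of the 93, 88 were annotated as V genes and 5 as pseudogenes (Trav9n-1, Trav11n, Trav13-3, Trav8-2 and Trbv24). The 8 segments that passed between CD4 and CD8 T cells of the brLN both by UMIs and by cells are shown first, by the last 60 bases of their coding sequence, 5′ to 3′ on the coding strand, where the segment meets the joint. Capitals mark the last in-frame cysteine codon, the conserved cysteine at which the peptide-contacting loop begins. The first 4 were higher in CD4 and the last 4 higher in CD8 T cells.
Trbv31: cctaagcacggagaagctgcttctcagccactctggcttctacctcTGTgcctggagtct
Trbv20: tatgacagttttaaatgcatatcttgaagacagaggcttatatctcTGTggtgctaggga
Trbv5: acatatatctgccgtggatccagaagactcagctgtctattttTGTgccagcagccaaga
Trbv2: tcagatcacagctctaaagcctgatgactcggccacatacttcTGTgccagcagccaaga
Trbv12-1: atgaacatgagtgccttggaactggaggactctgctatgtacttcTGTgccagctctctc
Trbv12-2: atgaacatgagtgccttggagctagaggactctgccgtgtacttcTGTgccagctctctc
Trbv29: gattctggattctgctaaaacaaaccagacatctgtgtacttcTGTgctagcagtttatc
Trbv14: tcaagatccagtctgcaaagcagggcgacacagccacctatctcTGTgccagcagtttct

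Trbv31 (chr6:41557691-41558452) was the only member of the beta locus on the minus strand. Trbv20 (chr6:41188273-41188977), Trbv5 (chr6:41062332-41062803), Trbv2 (chr6:41047340-41047995), Trbv12-1 (chr6:41113550-41114067), Trbv12-2 (chr6:41118851-41119364), Trbv29 (chr6:41271394-41271881) and Trbv14 (chr6:41135145-41135616) were on the plus strand. The 8 coding ends differed from each other. Copies within a family were more alike. Trbv12-1 and Trbv12-2 were 88.17% identical over their coding bases. Among Trav genes, 19 pairs of copies were at least 97% identical, and Trav7-3 and Trav7d-3, as well as Trav9-1 and Trav9d-1, were 99.41% identical. How reads that match several copies were counted is not given in the sources used here, so the level of a single Trav copy is uncertain. The windows below show a pair from each locus, coding bases 135 to 214 of the Trbv12 pair and 154 to 233 of the Trav14 pair, with the bases at which the pair differs in capitals (15 of the 44 differences of the Trbv12 pair and 4 of the 10 of the Trav14 pair).
Trbv12-1: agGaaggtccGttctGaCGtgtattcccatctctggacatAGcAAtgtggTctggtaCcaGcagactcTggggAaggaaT
Trbv12-2: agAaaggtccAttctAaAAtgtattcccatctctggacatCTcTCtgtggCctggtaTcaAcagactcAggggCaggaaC
Trav14-3: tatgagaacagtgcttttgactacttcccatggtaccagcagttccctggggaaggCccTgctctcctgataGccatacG
Trav14d-3-dv8: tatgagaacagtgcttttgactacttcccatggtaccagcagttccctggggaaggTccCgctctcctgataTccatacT

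V segment RNA was found in most T cells. A Trbv UMI was present in 96.2% of the 4833 T cells (95% Wilson interval 95.6% to 96.7%, counting error only) and a Trav UMI in 72.2% (70.9% to 73.4%), with medians of 6 Trbv and 2 Trav UMIs per cell at a median depth of 3230 UMIs. Over these cells the Trbv segments summed to 35382 UMIs and the Trav segments to 11656. The constant genes, which are part of the same messages, summed to 1437 UMIs for Trbc1, 2821 for Trbc2 and 3677 for Trac. The labels name a 3′ library kit together with totalseq-C hashtag antibodies. V UMIs lie in the part of the message upstream of the constant region, and they outnumbered the constant region's UMIs at both loci. In B cells, which do not rearrange these loci productively, 7.94% of cells had a Trbv UMI and 4.01% a Trav UMI at a median of 2261 UMIs. With each cell thinned to 1500 UMIs, the shares were 89.0% (Trbv) and 55.1% (Trav) in T cells and 6.63% and 2.54% in B cells, leaving out 187 T and 197 B cells that were shallower.

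The CD4 lineage had more V segment RNA per total RNA. Trbv UMIs made up 2.44 of every 1000 UMIs of CD4 and 1.92 of every 1000 UMIs of CD8 T cells, and Trav UMIs 0.833 and 0.605, and both levels were higher in CD4 in each of the 7 mice. Per mouse the Trbv level ran from 2.11 to 3.52 per 1000 UMIs in CD4+ Treg (n = 6), 2.20 to 2.59 in CD4+ Mem T, 2.15 to 2.48 in CD4+ Naive T, 1.65 to 2.14 in CD8+ Naive T (n = 7 each) and 1.39 to 2.11 in CD8+ Mem T (n = 6). It was higher in Treg than in naive CD4 cells in 5 of 6 mice, with overlap between these classes. The share of cells with a Trbv UMI had another order, with 93.6% in CD4+ Treg and 95.5% to 97.2% in the other classes, and 95.7% in the CD4 and 96.7% in the CD8 lineage. The Trav level was lower in Treg than in naive CD4 cells in all 6 mice (0.457 to 0.709 and 0.693 to 0.987 per 1000 UMIs). No test was made of these levels. Without thinning, Trav UMIs were found in 62.8% of CD4+ Treg and in 70.8% to 76.4% of the other 4 classes. In the 73 cells annotated as gamma delta T cells, 52.1% had a Trav UMI, and segments with dv in the symbol gave 82.4% of the Trav UMIs, against 14.2% in the 4833 alpha beta T cells. A Trbv UMI was found in 45.2% of these 73 cells.

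Some segments were common because many cells used them, others because few cells carried many molecules. The 8 Trbv segments with the most UMIs were Trbv1 (3193 UMIs), Trbv13-1 (2919), Trbv16 (2887), Trbv3 (2807), Trbv15 (2282), Trbv13-3 (2118), Trbv5 (2070) and Trbv19 (2065). Trbv13-2 and Trbv12-2 had UMIs in the most cells, 640 and 625, with 1605 and 1822 UMIs. Where a segment was the cell's leading one, meaning the one with the most UMIs, with at least 3, Trbv17 averaged 15.8 UMIs per cell, Trbv15 13.0, Trbv1 10.9 and Trbv13-1 10.5, whereas Trbv19 averaged 5.89, Trbv13-2 4.88 and Trbv2 4.17. All of these are UMI counts, not levels per length, and the coding sequences of the 88 V genes ran from 291 to 377 bases. A share of UMIs and a share of cells therefore rank the segments differently, and both are given below. The 6 most abundant Trav segments were Trav3-3 (514 UMIs in 204 cells), Trav12-2 (510 in 182), Trav13-1 (487 in 190), Trav6-7-dv9 (419 in 217), Trav14d-3-dv8 (394 in 209) and Trav7-4 (369 in 145). Trbv24 and Trbv21 were rare, with 104 UMIs in 69 cells and 27 UMIs in 25 cells. In 53 of the 69 and 20 of the 25, a different segment led the cell, and neither gene led any cell with 3 UMIs or more.

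Many cells held RNA of more than 1 V segment, and genes just upstream of the leading segment were found in them more often than genes just downstream. UMIs of 2 or more Trbv segments were found in 31.8% of T cells, and of 2 or more Trav segments in 27.9%, with at most 5 per cell. Among the 3814 cells with a leading Trbv segment of at least 3 UMIs, 33.7% (1285 cells) had another Trbv segment with any UMI, and 7.73% had another with at least 3. The nearest gene was among the others in 209 cells on the upstream and 56 on the downstream side, so most second segments lay elsewhere. The pair with the largest excess was Trbv13-2 with Trbv12-2, which starts 2.545 kb upstream of it. Trbv12-2 UMIs were present in 105 of the 199 cells led by Trbv13-2 (52.8%), against 119 of 2192 cells (5.43%) led by segments farther away. The count was 16 of 32 cells in mouse 1, 29 of 47 in mouse 4, 5 of 10 in mouse 6, 19 of 35 in mouse 7, 12 of 20 in mouse 8, 12 of 32 in mouse 36 and 12 of 23 in mouse 97, so the pair occurred together in 37.5% to 61.7% of such cells of every mouse. Of the 625 cells with Trbv12-2 UMIs, 316 were led by another segment, and Trbv12-2 was itself the leading segment with at least 3 UMIs in 140.

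The pairing had a direction. For Trbv segments, the nearest gene on the upstream side had UMIs in 6.33% of led cells and the next in 3.55%, where cells led by distant segments gave 2.00% and 1.86%. The nearest gene on the downstream side had UMIs in 1.57%, against 1.78% in cells led by distant segments. For Trav segments the nearest and next upstream genes had UMIs in 3.46% and 4.17% of led cells, against 0.956% and 1.05%, and the nearest downstream gene in 1.27%, against 1.05%. Within 2 places, upstream genes were found in 8.19% to 13.7% of led cells across the 7 mice for Trbv and downstream genes in 2.34% to 4.73%. For Trav these ranges were 3.49% to 11.5% and 0.820% to 2.97%. The upstream share was above the downstream share in each mouse at both loci. When a plus-strand V segment is joined, the DNA between it and the J segment is lost, whereas segments upstream of it stay in place. This is background and was not examined here. Only plus-strand segments entered these neighbour shares, so cells led by Trbv31 were left out of them. The cells share wells and libraries, and these shares are given as a description.

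**Figure D1:**
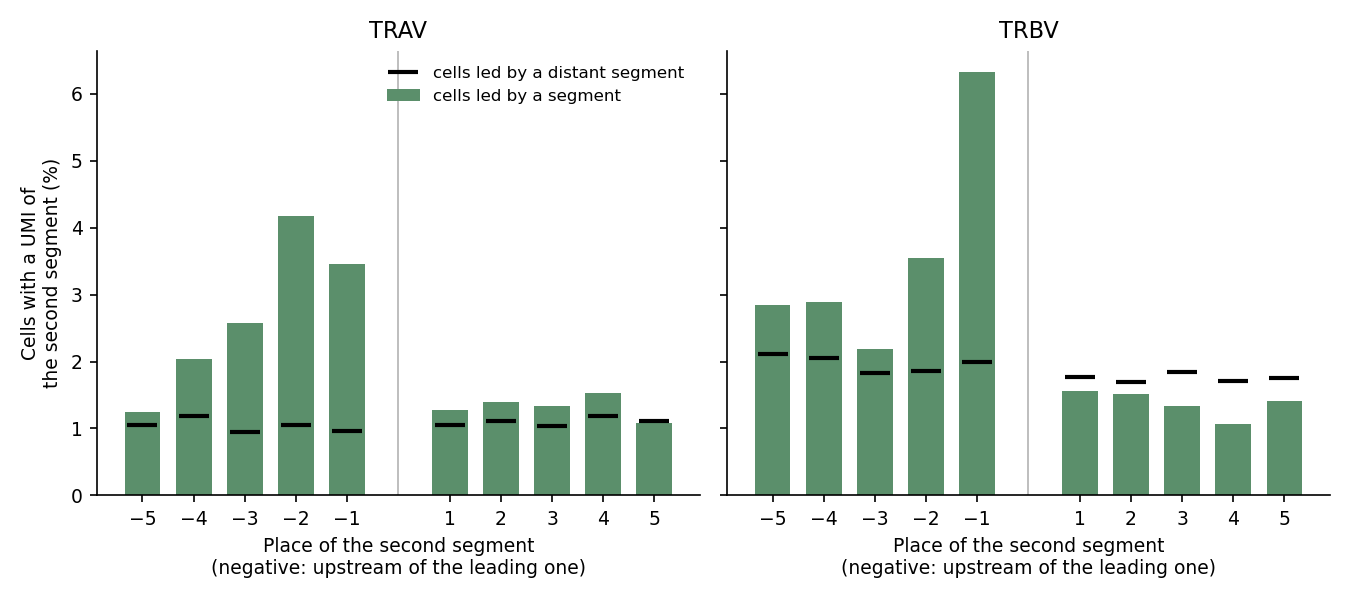
Share of cells (%) with UMIs of a second V segment, by its place relative to the cell's leading segment in genomic order (negative places are upstream), for Trav (left) and Trbv (right). Bars are cells whose leading segment has at least 3 UMIs, and dashes are the same segments in cells led by distant ones. The nearest upstream Trbv gene stands at 6.33% and the nearest downstream gene at 1.57%. Trbv31, on the minus strand, is left out.

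Of 2607 pairs of a leading and a second segment with at least 20 led cells, 1652 had the second segment upstream, and 18 of the 20 pairs with the largest excess over distant cells did. Trav6-3 UMIs were found in 10 of 32 cells led by Trav7-3 (31.3%, against 1.59%), Trav9-1 UMIs in 12 of 43 cells led by Trav10 (27.9%, against 1.94%), and Trav3-3 UMIs in 11 of 45 cells led by Trav4-4-dv10 (24.4%, against 1.69%). At the beta locus, Trbv13-2 UMIs were found in 30 of 125 cells led by Trbv14, and Trbv12-2 UMIs in 48 of 250 cells led by Trbv13-3. The 2 pairs with a downstream partner were Trav7d-3 with Trav6-3 (7 of 24 cells) and Trav16 with Trav17 (2 of 20 cells). Trav7d-3 is the near-identical copy of Trav7-3, whose neighbour Trav6-3 is.

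The first comparison asked which V segments differ between CD4 and CD8 T cells of the same node of the same mouse. In the brLN of 7 mice, the CD4 lineage had more Trbv31, Trbv20, Trbv5, Trbv2, Trav9-1, 3 Trav14 and 2 Trav4 segments. The CD8 lineage had more Trbv12-1, Trbv12-2, Trbv29, Trbv14, Trav16n and Trav12n-3. The largest differences were about 4-fold. In the quasi-likelihood test of edgeR, adjusted over all genes by the Benjamini-Hochberg method, 25 of the 42 V segments tested differed at an adjusted p below 0.05, 18 higher in CD4 and 7 higher in CD8 T cells. Of all 6827 genes tested in this comparison, 17.7% did, 8.58% higher and 9.08% lower in CD4. Scaled to the UMIs of the own locus, so that the higher receptor RNA of CD4 cells does not count, 23 differed, 13 higher and 10 lower (17.6% of all genes did). All of the first 25 kept their direction in that fit, and 20 of them were called again. Cell type labels were the authors', and whether V segments entered their clustering is not given in the sources used here. With the lineages instead taken from Cd4 and Cd8 UMIs of each cell, 17 differed (13.7% of all genes did). Of the 25, 16 had enough counts to be tested this way. All 16 kept their direction, and 15 were called again.

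Trbv31 had the firmest difference. Its share of all Trbv UMIs in the brLN was 10.7%, 11.9% and 6.68% in CD4 T cells of WT mice 1, 6 and 97, and 7.72%, 9.56%, 8.60% and 10.0% in those of Aire-DTR mice 4, 7, 8 and 36. In CD8 T cells it was 3.29%, 2.12% and 1.80% in the WT mice, and 2.02%, 1.67%, 1.02% and 3.67% in the Aire-DTR mice. Every CD4 value was above every CD8 value. The log2 difference was 2.15 (SE 0.10, 4.43-fold, n = 7 mice, adjusted p = 2.26e-24 by edgeR). By cells with a Trbv31 UMI, summed over both nodes, 10.7% ± 0.704 of CD4 and 3.90% ± 0.753 of CD8 T cells were positive (SD, n = 7).

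Trbv20 and Trbv5 were also higher in CD4 T cells. The Trbv20 share in the brLN ran from 3.55% (median 4.66%) to 6.12% in CD4 and from 0.170% (median 2.12%) to 2.68% in CD8 T cells, without overlap (log2 1.44, SE 0.13). Trbv5 ran from 2.48% (median 8.08%) to 10.0% in CD4 and from 1.06% (median 2.95%) to 7.47% in CD8 T cells (log2 1.45, SE 0.13). Its groups overlapped, and it was higher in CD4 in 6 of 7 mice. Trbv2 was likewise higher in 6 of 7 mice, with medians of 2.86% and 1.36% (log2 1.24, SE 0.17). Smaller differences in the same direction, below 2-fold, passed for Trbv3 (log2 0.68, SE 0.09), Trbv13-2 (0.56, SE 0.10), Trbv1 (0.53, SE 0.12), Trbv19 (0.41, SE 0.09) and Trbv26 (0.56, SE 0.18).

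Among segments higher in CD8 T cells, Trbv12-1 had the largest difference. Its share of Trbv UMIs in the brLN ran from 0 (median 0.515%) to 2.70% in CD4 and from 3.65% (median 4.47%) to 6.45% in CD8 T cells, so the groups did not overlap (log2 -2.16, SE 0.23, adjusted p = 1.64e-11 by edgeR over 7 mice). Without mouse 36 the difference was -3.15. By cells, summed over both nodes, 2.08% ± 1.01 of CD4 and 9.18% ± 1.06 of CD8 T cells had a Trbv12-1 UMI. Trbv12-2, its relative, ran from 2.12% to 4.07% in CD4 and from 4.60% to 9.04% in CD8 T cells, again without overlap (log2 -1.12, SE 0.11). Trbv29 was lower in CD4 in each of the 7 mice, with medians of 1.36% and 4.91% (log2 -1.59, SE 0.18), and Trbv14 in 6 of 7, with medians of 1.73% and 4.75% (log2 -1.25, SE 0.15). Trbv15 differed by less (log2 -0.43, SE 0.12) and did not pass without mouse 1 or mouse 4. Without mouse 36, Trav9-1, Trav16n and Trav12n-3 fell below the count filter, as did the last 2 without mouse 7 and Trav12n-3 without mouse 8. Trbv13-1, Trbv16, Trbv13-3 and Trbv4, among the most abundant segments, had differences of 0.01, -0.19, 0.07 and 0.07 that did not pass, and their ranges overlapped between the lineages.

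**Figure D2:**
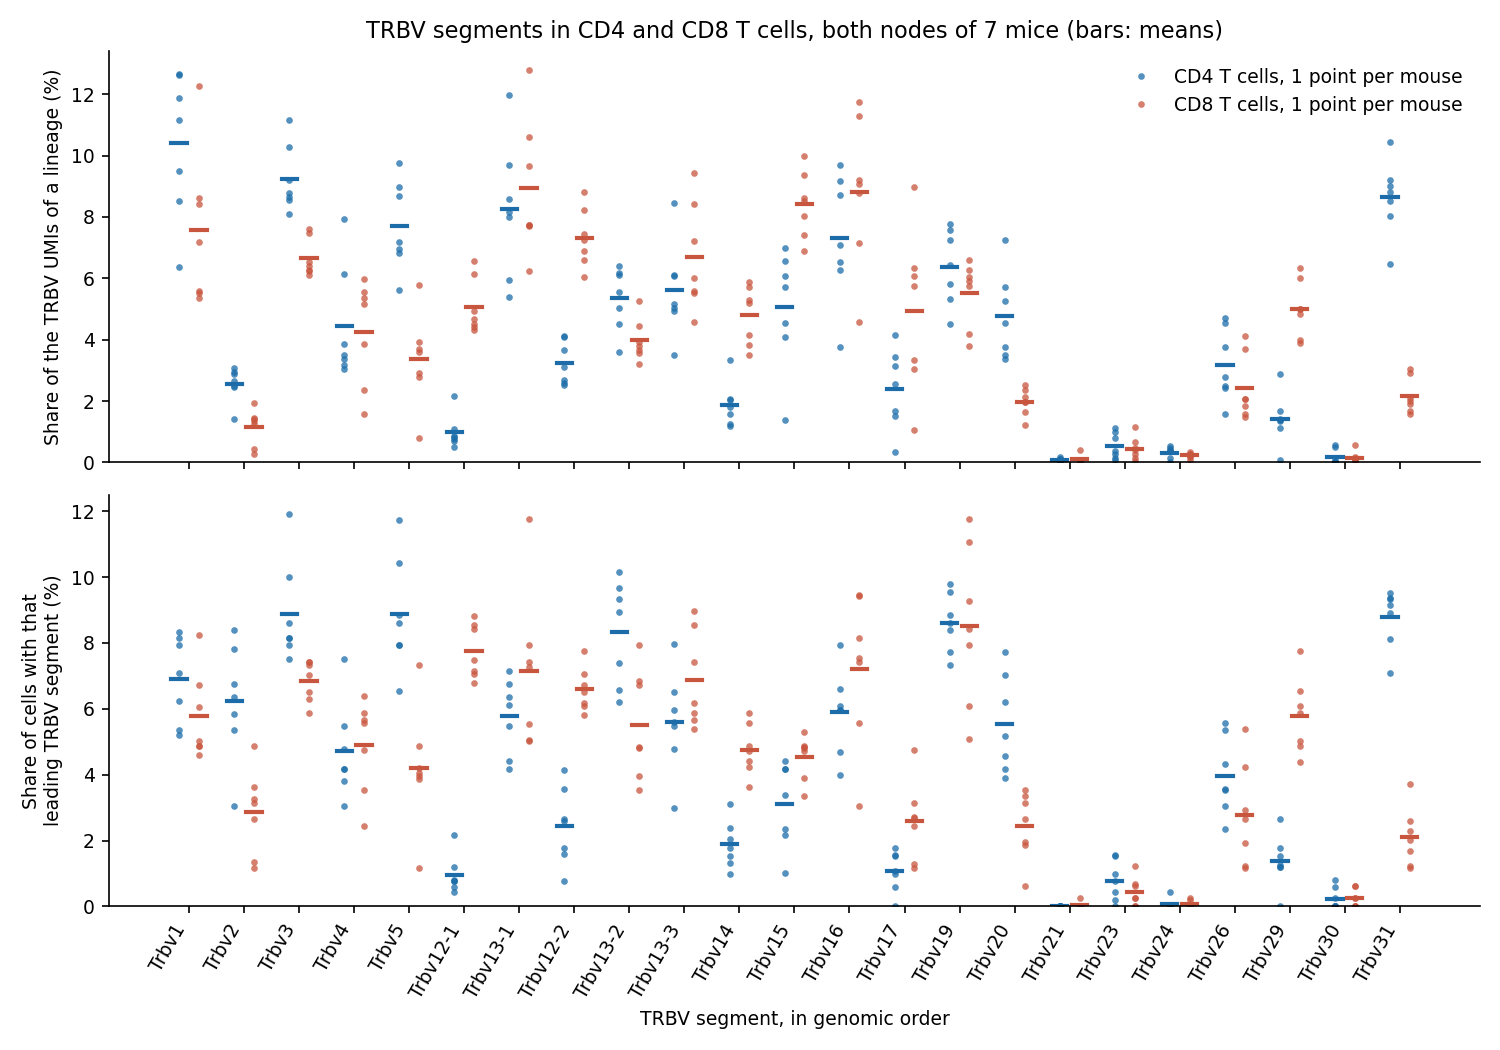
The 23 Trbv segments in genomic order in CD4 (blue) and CD8 (red) T cells of both nodes, 1 point per mouse (n = 7) with bars at the means. The upper panel gives the share of Trbv UMIs (%) and the lower panel the share of cells (%) in which the segment has the most Trbv UMIs. Trbv31 stands at 8.65% of UMIs in CD4 and 2.18% in CD8 T cells, and Trbv12-1, Trbv12-2, Trbv14 and Trbv29 stand higher in CD8.

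Trav segments had fewer UMIs, and their copies cannot always be told apart, so single copies and whole families are both given. Trav14d-3-dv8 ran from 2.85% (median 4.48%) to 12.0% of Trav UMIs in CD4 and from 0 (median 1.87%) to 2.73% in CD8 T cells of the brLN, without overlap (log2 1.62, SE 0.23, adjusted p = 5.28e-08 by edgeR over 7 mice). Trav9-1 was higher in CD4 in 6 of 7 mice (medians 2.75% and 1.28%, log2 1.37, SE 0.22). Trav14-2 (log2 1.33), Trav4-4-dv10 (1.12), Trav14n-3 (1.07), Trav6-7-dv9 (0.91), Trav5-4 (0.84), Trav4-3 (0.78) and Trav6-5 (0.64) also passed in this direction. In the other direction, Trav16n had medians of 0.971% in CD4 and 4.19% in CD8 T cells (log2 -1.61, SE 0.25) and Trav12n-3 medians of 0.384% and 2.56% (log2 -1.83, SE 0.34). Each was lower in CD4 in 6 of 7 mice. Trav7-4 (log2 0.59, adjusted p = 0.0511 by edgeR), Trav12-2 (-0.44, adjusted p = 0.12), Trav3-3 (-0.30) and Trav13-1 (-0.08) did not pass. With both nodes summed, Trav12-2 was lower in CD4 in all 7 mice and passed (log2 -0.62, SE 0.14), in a fit in which 21.2% of all genes passed. In that fit Trav4-3 was at 0.21 (SE 0.20) and did not pass.

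Sums over a family do not depend on which of its copies a read was given to. Over both nodes, the 5 Trav14 segments gave 16.6% ± 3.59 of Trav UMIs in CD4 and 8.87% ± 1.63 in CD8 T cells (SD, n = 7). The 4 Trav12 segments gave 6.97% ± 1.43 and 14.3% ± 3.08, and the 3 Trav16 segments 3.24% ± 1.18 and 6.69% ± 0.776. In these 3 families the ranges of the lineages did not overlap, and in every other Trav family they overlapped, Trav9 and Trav6 included. The 5 Trav9 segments gave 7.35% and 4.12% and the 9 Trav6 segments 11.9% and 9.51%, higher in CD4 in each of the 7 mice. The 3 Trav4 segments gave 6.46% ± 1.86 and 5.56% ± 3.62, with overlap, and were higher in CD4 in 5 of 7 mice. At the beta locus, Trbv12-1 and Trbv12-2 together gave 4.24% ± 1.15 and 12.4% ± 0.857, without overlap. The 3 Trbv13 segments gave 19.2% and 19.6% and were higher in CD4 in 3 of 7 mice.

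With cells counted in place of UMIs, fewer segments had enough counts to be tested and fewer passed. In the brLN, 8 of 22 segments tested passed by cells with a UMI (17.5% of all genes did, 2.91% higher and 14.5% lower in CD4): Trbv31, Trbv5, Trbv20 and Trbv2 higher in CD4, and Trbv12-1, Trbv29, Trbv14 and Trbv12-2 higher in CD8 T cells. With both nodes summed, 13 of 27 passed by cells (25.2% of all genes did), 7 higher in CD4 and 6 in CD8, and 10 of 20 by leading segment (25.1% of all genes did). By cells with a UMI, the log2 differences over both nodes were 1.45 (SE 0.14) for Trbv31, 1.03 for Trbv20, 0.89 for Trbv5, 0.93 for Trbv2, 1.11 for Trav14d-3-dv8, 0.81 for Trav9-1 and 0.53 for Trbv26. They were -2.15 (SE 0.21) for Trbv12-1, -1.44 for Trbv29, -1.19 for Trbv14, -1.24 for Trav16n, -0.83 for Trav12-2 and -0.55 for Trbv12-2. Trbv12-2, whose UMIs were often found in cells led by another segment, differed by -1.40 (SE 0.21) when only the leading segment of each cell counted. In the brLN, Trbv3, Trbv1, Trbv19 and Trbv15 passed by UMIs and not by cells.

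**Figure D3:**
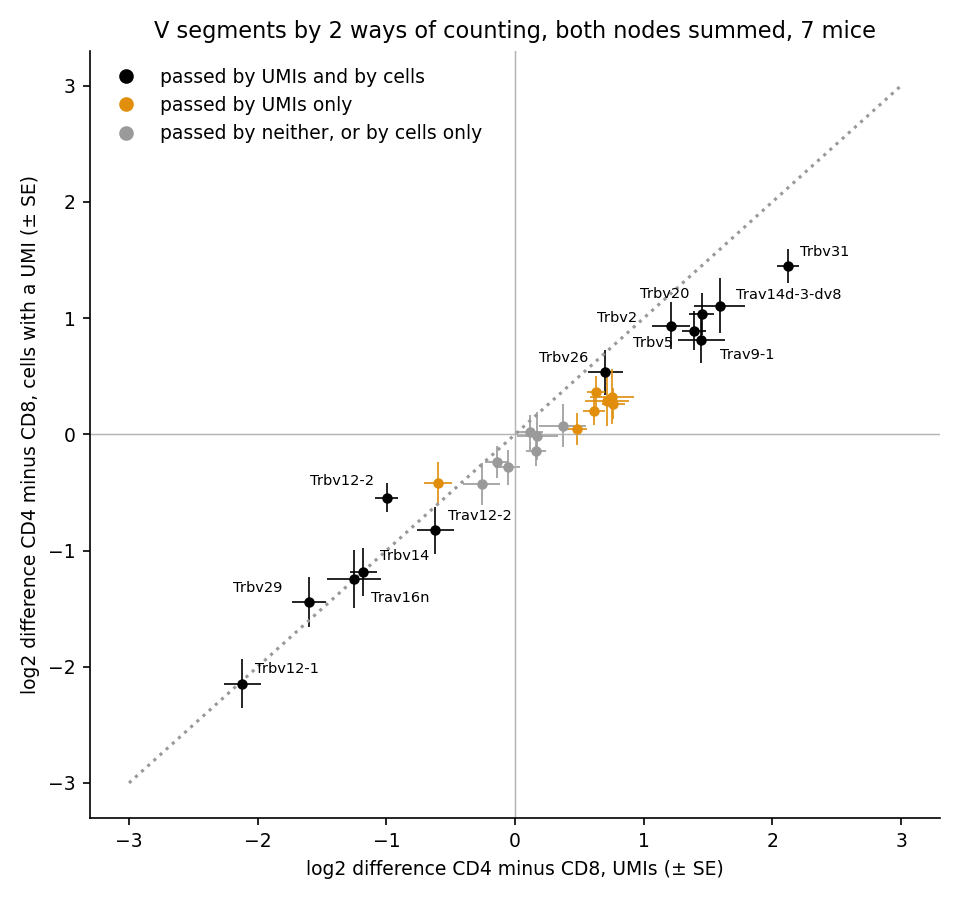
Log2 difference of CD4 minus CD8 T cells by UMIs (x axis) and by cells with a UMI (y axis), both nodes summed over 7 mice, with SE bars and a dotted line of equality. Black segments passed both ways, orange ones by UMIs only and grey ones neither way or by cells only. Trbv31 and Trbv12-1 lie farthest from 0 in opposite directions.

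The udLN gave a similar list from 6 mice and fewer cells. Of 22 V segments tested, 20 passed, 12 higher in CD4 and 8 higher in CD8 T cells, where 14.2% of all 4460 genes passed, 6.3% higher and 7.89% lower. Scaled to the own locus 16 passed, 8 in each direction (14.1% of all genes did). Trbv31 again led, at 5.26% to 9.04% of Trbv UMIs in CD4 and 0 to 3.27% in CD8 T cells, without overlap (log2 2.20, SE 0.16, adjusted p = 1.51e-17 by edgeR over 6 mice). Trbv12-1 was at 0.466% to 2.37% in CD4 and 3.96% to 7.54% in CD8 T cells (log2 -2.30, SE 0.22). Trbv1 (log2 1.40), Trbv20 (1.43), Trbv5 (1.26), Trav9-1 (1.53), Trbv2 (1.08), Trbv26 (1.02) and Trbv13-2 (0.90) were higher in CD4. Trbv17 (-1.57), Trbv29 (-1.52), Trbv14 (-1.02), Trbv15 (-0.93), Trav12-2 (-0.94), Trbv12-2 (-0.73) and Trbv13-3 (-0.68) were higher in CD8. Trbv3 (0.50), Trbv19 (0.59), Trbv13-1 (0.45) and Trbv16 (0.32) passed with smaller differences. Of 18 named segments that passed, 4 did not pass when 1 mouse was left out, Trbv12-2 without mouse 4 (-0.366), Trbv19 without mouse 7, Trav12-2 without mouse 36 and Trbv13-1 without mouse 8 or mouse 36. Trav9-1 fell below the count filter without mouse 1 or mouse 4. Of the 22 segments tested in both nodes, 15 passed in both, all 15 in the same direction, with the same mice giving both nodes. The share of all genes that passed in both nodes was not computed, so this count has no background beside it. By cells with a UMI, 0 of 6 segments tested in the udLN passed (10.8% of all genes did), with 3 at an unadjusted p below 0.05 (23.7% of all genes).

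Among known groups of segments, those of invariant natural killer T cells, which use an invariant alpha chain of Trav11 with Trbv13-2, Trbv29 or Trbv1, did not move together between the lineages in the brLN. Trbv13-2 and Trbv1 were higher and Trbv29 lower in CD4 T cells, and the Trav11 and Trav11d genes were not in the table used here. Of the segments of mucosal-associated invariant T cells, Trbv19 was higher in CD4, Trbv13-3 did not pass, and Trav1 (131 UMIs in all) was not tested. Of 6 Trbv segments known for deletion by superantigens in mice with the class II molecule I-E, 5 were tested. Trbv26 was higher in CD4, Trbv12-1, Trbv12-2 and Trbv15 higher in CD8, Trbv16 did not pass, and Trbv24 was not tested (median log2 -0.43, against 0.01 over all genes). Of the 9 dv segments 4 were tested, and Trav14d-3-dv8, Trav4-4-dv10 and Trav6-7-dv9 were higher in CD4. Of the family lists, 1 of 3 Trbv13 segments tested was higher in CD4 (Trbv13-2), 1 of 1 Trav9, 2 of 2 Trav4 and 3 of 4 Trav14 segments were, and 1 of 3 Trav12 segments was lower, where 8.58% of all genes were higher and 9.08% lower in this comparison. Of the 7 constant and CD3 genes, Trac (log2 0.31) and Cd247 (0.34) were higher and Cd3d (-0.14) and Cd3e (-0.15) lower in CD4, and Trbc1, Trbc2 and Cd3g did not pass. In the udLN, Trac (0.49), Cd247 (0.38) and Trbc2 (0.35) were higher, and the other 4 did not pass. The 6 gamma delta receptor genes listed had too few counts in these cells for a test.

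Within the CD4 lineage, Trbv31 was lower in memory than in naive cells. Its share of Trbv UMIs in CD4+ Naive T and CD4+ Mem T was 10.1% and 5.98% in mouse 1, 10.4% and 4.08% in mouse 4, 9.96% and 7.33% in mouse 6, 11.7% and 4.08% in mouse 7, 9.76% and 9.22% in mouse 8, 11.9% and 4.23% in mouse 36, and 6.41% and 2.24% in mouse 97. It fell in each of the 7 mice, by the least in mouse 8 (log2 -1.25, SE 0.13, adjusted p = 2.57e-10 by edgeR). By cells with a UMI it was also lower (206 of 1703 and 38 of 533 cells, log2 -0.77, SE 0.20), and it was lower in 6 of 7 mice. Trbv12-2 was higher in memory cells by UMIs (2.25% ± 0.813 and 5.11% ± 2.91, log2 0.89, SE 0.17) and by cells (log2 0.55, SE 0.16, higher in 7 of 7 mice), and Trav13-1 by UMIs (log2 0.65, SE 0.22). These were the 3 of 24 V segments tested that passed, where 23.3% of all genes passed between these classes, 11.6% higher and 11.7% lower. Trav13-1 did not pass without mouse 1, 7 or 36. Trbv31 and Trbv12-2 were also the 2 of 7 that passed by cells, where 46.8% of all genes did, 44.5% higher and 2.35% lower in memory cells. The next smallest p-values were those of Trbv2 (log2 -0.56) and Trbv5 (-0.40), which did not pass. Cd8b1 UMIs were in 19.1% of CD4+ Mem T and 8.75% of CD4+ Naive T cells, and CD8 T cells had less Trbv31 and more Trbv12-2. The part of such cells in these differences was not tested.

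In CD4+ Treg, 9 of 18 V segments tested differed from CD4+ Naive T over 6 mice, 6 higher and 3 lower, where 15.3% of all genes did, 7.91% higher and 7.42% lower. Scaled to the own locus, 2 were higher and 3 lower (15.2% of all genes passed). DESeq2 found 0 of the 18 (9.5% of all genes), with 4 at an unadjusted p below 0.05 (17.1% of all genes). The 6 higher were Trbv17 (log2 2.58, SE 0.27), Trbv14 (1.20), Trbv29 (1.20), Trbv12-2 (0.84), Trbv16 (0.72) and Trbv13-1 (0.61), and the 3 lower were Trbv13-3 (-0.80), Trbv31 (-0.68) and Trbv4 (-0.65). Of these 9, Trbv17 fell below the count filter without mouse 4 and passed without each other mouse, and each of the other 8 did not pass without at least 1 of the mice. Without mouse 7, Trbv29 was at 0.28, and Trbv12-2, Trbv31, Trbv4 and Trbv13-3 also did not pass. Without mouse 36, Trbv12-2, Trbv16 and Trbv31 did not pass, and Trbv13-3 was at -1.41. Without mouse 4, Trbv14, Trbv12-2 and Trbv16 did not pass, without mouse 1 Trbv13-1 and Trbv13-3, and without mouse 8 Trbv12-2. Without mouse 97, 4 V segments passed, Trbv13-1, Trbv16, Trbv4 and Trbv13-3 did not, and Trbv14 fell below the count filter. Trbv17 in Treg came from few cells. It gave 10.4% of Trbv UMIs in mouse 1 from 3 cells, 12.2% in mouse 4 from 4 cells, 3.26% in mouse 7 from 1 cell, 14.5% in mouse 36 from 3 cells, and 0 in mice 8 and 97. In the naive cells its share was 0.458% to 3.46% in all 7 mice. Over mice, 11 of 311 Treg and 25 of 1703 naive cells had a Trbv17 UMI. By cells, 2 segments had enough counts in Treg to be tested (Trbv31 and Trbv13-2). Of these, 0 passed (6.6% of all genes did), with 1 at an unadjusted p below 0.05 (17.6% of all genes). Cd8b1 was higher (log2 0.85, SE 0.24) and Cd4 lower (-0.87, SE 0.14) in Treg than in naive cells. In the udLN, Trbv17, Trbv14, Trbv29 and Trbv12-2 were higher in CD8 and Trbv31 in CD4 T cells. Trbv16, Trbv13-1 and Trbv13-3 differed there in the direction opposite to such a mixture. The part of CD8 T cells in these differences was not tested.

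In CD8+ Mem T, 8 of 22 V segments tested differed from CD8+ Naive T over 6 mice, 3 higher and 5 lower, where 12.1% of all genes did, 7.5% higher and 4.56% lower. Scaled to the own locus, 3 were higher and 3 lower (12.0% of all genes passed). Trbv16 had the firmest difference. Its share of Trbv UMIs in naive and memory cells was 7.91% and 3.50% in mouse 1, 9.90% and 2.62% in mouse 4, 12.9% and 4.28% in mouse 7, 4.84% and 3.59% in mouse 8, 10.3% and 5.84% in mouse 36, and 9.97% and 3.29% in mouse 97. It fell in all 6 mice (log2 -1.49, SE 0.14, adjusted p = 5.04e-15 by edgeR), while the share of cells with a Trbv16 UMI was lower in 4 of 6 (8.33% ± 2.21 over 7 and 6.17% ± 1.55 over 6 mice). Trbv12-2 was higher in memory cells in all 6 mice (6.38% ± 1.88 and 11.7% ± 2.13, log2 0.72, SE 0.13), as was Trav12-2 (5.81% and 9.82%, log2 0.90, SE 0.21), and Trbv14 was higher in 4 of 6 (log2 0.47). Trbv13-3 (-0.86), Trav3-3 (-1.30), Trbv13-1 (-0.54) and Trbv20 (-0.87) were lower. Of the 8, Trbv16, Trbv12-2, Trbv13-3 and Trav12-2 passed whichever mouse was left out. Trbv14 did not pass without mouse 4, 7 or 8, Trav3-3 without mouse 36, Trbv13-1 without mouse 4, 7, 8 or 36, and Trbv20 without mouse 7, 8 or 36. Without mouse 7 Trav3-3 was at -2.07, and without mouse 1 Trbv13-1 was at -1.24. DESeq2 found 2 of the 22 (5.88% of all genes). By cells, 0 of 4 segments tested passed (31.7% of all genes did), with 2 at an unadjusted p below 0.05 (46.4% of all genes). Of the 8 that passed by UMIs, 1 was among these 4. The Trbv12-2 rise by cells was 0.43 (SE 0.17, adjusted p = 0.0817 by edgeR, higher in 5 of 6 mice).

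**Figure D4:**
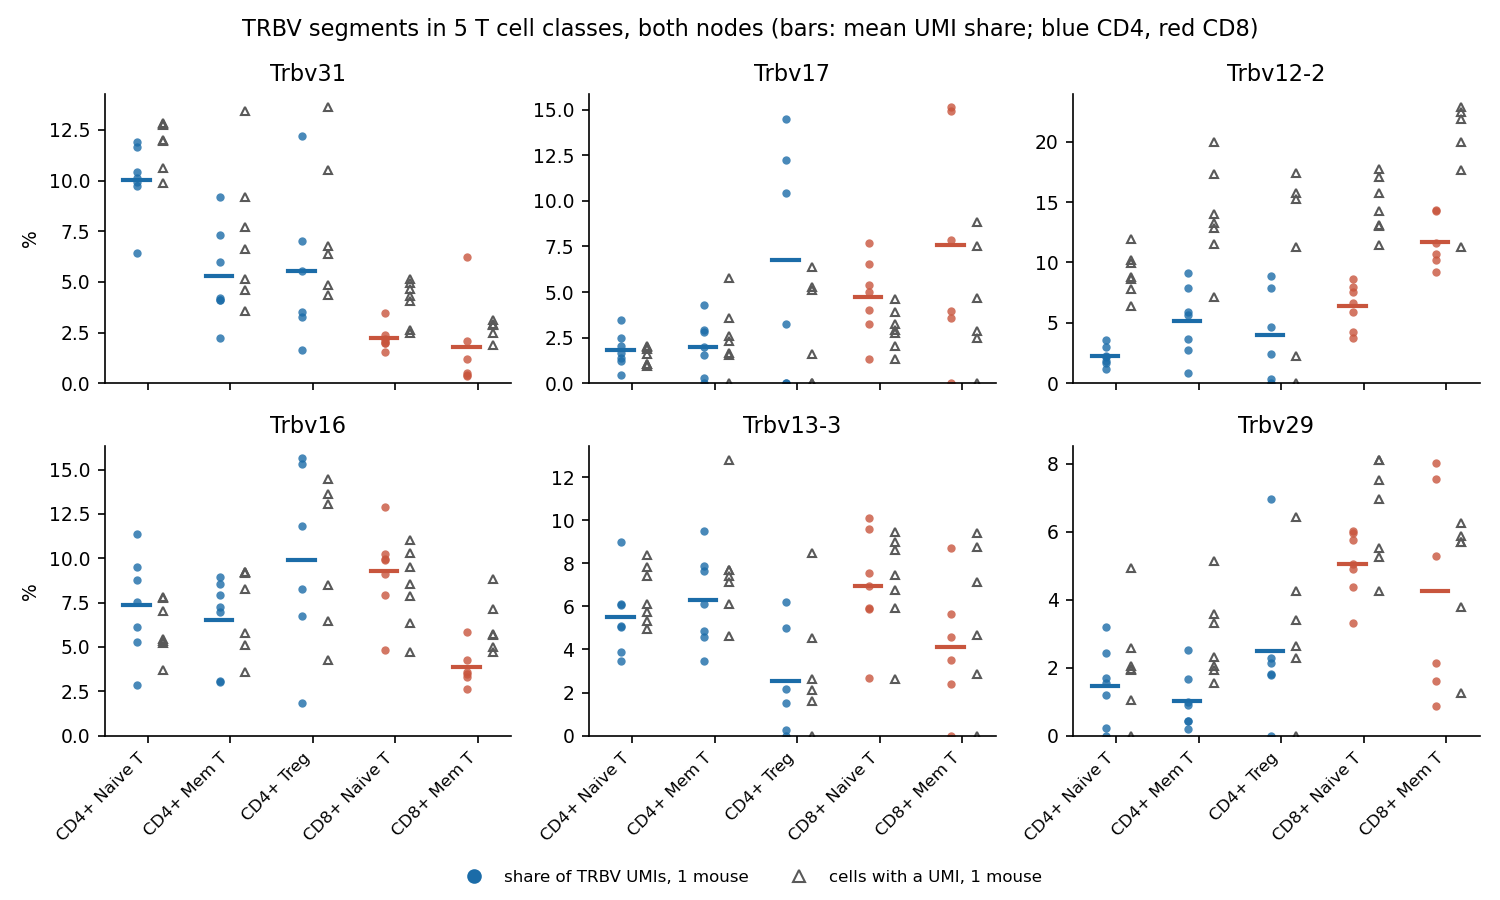
Trbv31, Trbv17, Trbv12-2, Trbv16, Trbv13-3 and Trbv29 in the 5 T cell classes, both nodes summed, 1 point per mouse. Dots give the share of Trbv UMIs (%), with bars at their means, and triangles the share of cells with a UMI (%). Trbv31 has a mean of 10.0% of UMIs in CD4+ Naive T, 5.31% in CD4+ Mem T and 2.22% in CD8+ Naive T.

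Aire-DTR and WT dams were compared within 1 lineage and 1 node at a time, with the pool as a term. Few V segments differed, and of these Trbv17, Trav3-1 and Trbv15 rested on few cells. In CD4 T cells of the brLN, 0 of 48 V segments passed by edgeR's quasi-likelihood test (0.0147% of all genes did), with 12 at an unadjusted p below 0.05, where 4.78% of all genes were. DESeq2 also found 0 (0.0% of all genes), with 4 at an unadjusted p below 0.05 (0.47% of all genes). The smallest p was that of Trav8-1, at 3.07%, 5.15% and 3.01% of Trav UMIs in WT mice 1, 6 and 97 and 2.07%, 0.665%, 0.373% and 1.25% in Aire-DTR mice 4, 7, 8 and 36. The 2 groups did not overlap, and the difference did not pass (log2 -1.64, SE 0.38, adjusted p = 0.247). The next were Trav9-1 (log2 1.13), Trbv3 (0.38), Trav7-5 (0.99) and Trav7-4 (-0.87). Without mouse 4, 2 segments passed, and without mouse 7, 1 did.

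In CD8 T cells of the brLN, 2 of 48 V segments passed (0.081% of all genes did). Trbv17 gave 7.40%, 0 and 6.0% of Trbv UMIs in WT mice 1, 6 and 97, from 14, 0 and 13 cells, and 3.32%, 3.49%, 4.92% and 2.43% in Aire-DTR mice 4, 7, 8 and 36, from 7, 7, 3 and 4 cells. WT mice of pools LN and 2 were above, and the WT mouse of pool 1 below, the Aire-DTR mice of their pool, so the groups overlapped (log2 -0.96, SE 0.20, adjusted p = 0.00982 by edgeR over 7 mice). Trav3-1 was higher in Aire-DTR (log2 2.45, SE 0.52, adjusted p = 0.0142 by edgeR over 7 mice). It met the count filter only through Aire-DTR mice 7, 8 and 36, the group in which it was high. The filter thus favoured a difference in this direction, and the p-value does not allow for that. It had 6, 0 and 2 UMIs in WT mice 1, 6 and 97 and 7, 16, 7 and 31 UMIs in mice 4, 7, 8 and 36. Of the 31 UMIs of mouse 36, 23 came from 1 cell. Without mouse 1 the Trav3-1 difference was 4.15, without mouse 97 it was 1.33 and did not pass, and without mouse 7, 8 or 36 the segment fell below the count filter. Trbv17 did not pass without mouse 1, 7, 36 or 97. Without mouse 7, 36 or 97, 0 V segments passed, without mouse 1 or mouse 8, 1 did, and without a term for the pool or by DESeq2, 0 did, with 8 at an unadjusted p below 0.05 in DESeq2 (0.648% of all genes). Of 25 segments tested by cells, 0 passed, and 0 were at an unadjusted p below 0.05 (3.5% of all genes were). Trbv17 and Trav3-1 had too few counts to be among these 25.

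In CD4 T cells of the udLN, 2 of 37 V segments passed over 4 Aire-DTR and 2 WT mice (0.129% of all genes did). Trbv15 gave 0.348% of Trbv UMIs in WT mouse 1 (4 UMIs in 2 of 155 cells) and 1.63% in WT mouse 6 (7 UMIs in 1 of 55 cells). In Aire-DTR mice 4, 7, 8 and 36 it gave 4.85%, 6.27%, 7.87% and 2.75%, from 14, 6, 5 and 2 cells. By UMI share the groups did not overlap, whereas by cells mouse 36, with 2 of 155 cells, had the share of WT mouse 1 (log2 by UMIs 3.11, SE 0.34, adjusted p = 8.39e-16 by edgeR). It passed without mouse 4, 7, 8 or 36, at 3.91 without mouse 8. Without mouse 1 or mouse 6, which left 1 WT mouse, the difference was 2.29 and 3.92. The fit counts UMIs summed per mouse, and the WT UMIs came from the few cells given above. The SE and p therefore do not measure the spread over cells. Trbv15 was the single V segment that DESeq2 called here (0.0184% of all genes), and it also passed without the pool term. In the brLN of the same WT mice it gave 2.06% and 8.41%, the first below and the second above the Aire-DTR range of 4.17% to 7.19%. Trbv16 gave 12.1% and 9.32% in WT mice 1 and 6 and 5.49%, 10.8%, 5.39% and 8.17% in mice 4, 7, 8 and 36, with overlap (log2 -0.74, SE 0.17, adjusted p = 0.0138). It did not pass without mouse 1, 4, 6 or 8. Without mouse 6 or mouse 8, 1 V segment passed. After these 2, the smallest p-values were those of Trbv3 (log2 -0.61), Trav14d-3-dv8 (-1.43) and Trbv13-3 (0.96), which did not pass. Of 12 segments tested by cells, 0 passed, and 0 were at an unadjusted p below 0.05 (3.25% of all genes were). Of the 2 segments that passed by UMIs, 1 was among these 12. By leading segment, Trbv16 was at -0.40 (SE 0.48) and did not pass.

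**Figure D5:**
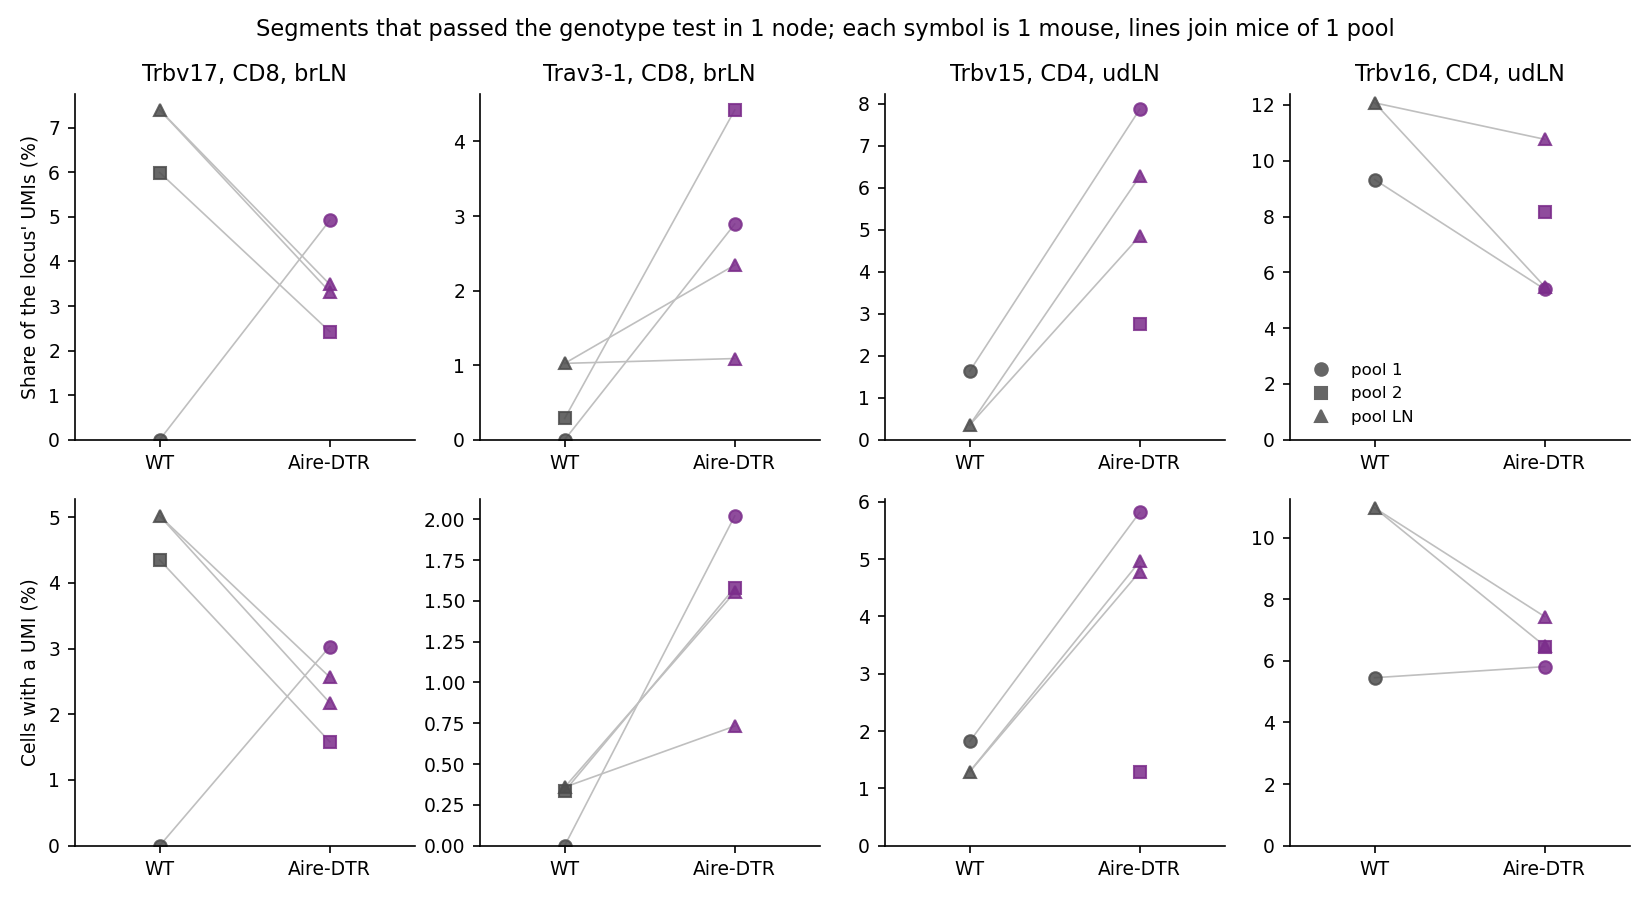
The 4 V segments that passed between genotypes, by mouse, with UMI shares (%) in the upper and cells with a UMI in the lower panels, and lines joining mice of the same pool. Trbv15 in CD4 T cells of the udLN stands at 0.348% and 1.63% in the 2 WT mice and 2.75% to 7.87% in the 4 Aire-DTR mice, and Trbv17 in CD8 T cells of the brLN runs the other way in pool 1.

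In CD8 T cells of the udLN, 0 of 25 V segments passed by edgeR (0.0419% of all genes did), with 6 at an unadjusted p below 0.05 (5.27% of all genes), and 0 by DESeq2, with 2 (0.251% of all genes). The smallest p-values were those of Trbv19 (log2 -0.94, adjusted p = 0.239), Trbv20 (1.68), Trbv15 (0.66), Trbv17 (-0.46) and Trav13d-1 (-1.49). Without mouse 1, 2 segments passed. One was Trbv15, at a log2 difference of 9.31 against a WT group that was then mouse 6 alone, with 0 Trbv15 UMIs in its 28 cells. Without mouse 4, 6 or 8, 1 segment passed. The difference of the genotype effect between the nodes was tested in an added fit of the 6 mice with both nodes. It passed for 2 of 37 V segments in CD4 (0.0884% of all genes), Trbv15 (2.33, SE 0.44) and Trbv13-3 (1.54, SE 0.33). In CD8 it passed for 3 of 24 (0.158% of all genes), Trbv20 (2.37, SE 0.58), Trbv15 (1.11, SE 0.26) and Trbv4 (-1.41, SE 0.34). By cells it passed for 0 of 15 and 0 of 8, with 3 (3.58% of all genes) and 0 (2.62%) at an unadjusted p below 0.05. Of the segments that passed by UMIs, 1 of 2 in CD4 and 0 of 3 in CD8 were tested by cells.

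The breadth of V usage was compared by the inverse Simpson index, the effective number of segments in use, after thinning all mice to the same number of segment UMIs. Numbers of cells were not made equal, and the UMIs of 1 cell mostly come from 1 segment. WT mouse 6 had the fewest cells in each lineage and node. Its index was the highest for Trbv in CD4 T cells of the brLN and the lowest in every other comparison. For Trbv in CD4 T cells of the udLN it was 10.4 from 55 cells, against 14.4 from 293 cells in mouse 4. The part of cell numbers in the differences below was not tested. For Trbv in CD4 T cells of the brLN it was 13.6 ± 0.842 in Aire-DTR (SD, n = 4) and 14.1 ± 0.569 in WT mice (n = 3), and for Trav 29.8 ± 3.82 and 29.0 ± 8.22. For Trbv in CD8 T cells of the brLN it was 15.1 ± 0.610 and 14.2 ± 2.09. In CD4 T cells of the udLN the Trbv index was 13.8 ± 0.880 in 4 Aire-DTR and 11.4 ± 1.43 in 2 WT mice. The Aire-DTR values lay between 13.0 and 14.7 and the WT values at 10.4 and 12.4, and the exact two-sided permutation p of 0.133 is the smallest that 4 against 2 mice allow. Over 8 comparisons, 0 passed (exact permutation p = 0.133 to 0.914, adjusted p = 0.914 in each). With 4 against 3 mice the smallest possible p is 0.0571, so a single comparison could not pass. The share of T cells with a V segment UMI, each cell thinned to 1500 UMIs, was 90.4% ± 1.58 in Aire-DTR (n = 4) and 89.6% ± 3.03 in WT mice (n = 3) for Trbv in CD4 T cells of the brLN. Over 8 such comparisons 0 passed by the exact permutation test (adjusted p = 0.933 in each).

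The nodes of the same mouse were compared last. In CD4 T cells, 0 of 31 V segments differed between udLN and brLN over 6 mice by edgeR (0.425% of all genes did), with 7 at an unadjusted p below 0.05 (8.44% of all genes). DESeq2 found 0 (0.0386% of all genes), with 3 at an unadjusted p below 0.05 (2.51%). Without mouse 4 or mouse 7, 1 V segment passed. Trbv13-1 was nearest (log2 0.55, SE 0.14, adjusted p = 0.0697, higher in the udLN in 5 of 6 mice), followed by Trbv19 (0.40), Trav6-7-dv9 (-0.74), Trbv31 (-0.31) and Trbv17 (-0.46). In CD8 T cells, 2 of 21 passed (0.216% of all genes did). Trbv17 gave 12.2%, 3.96%, 8.81%, 12.6%, 1.63% and 5.10% of Trbv UMIs in the udLN of mice 1, 6, 4, 7, 8 and 36, and 7.40%, 0, 3.32%, 3.49%, 4.92% and 2.43% in their brLN. It was higher in the udLN in 5 of 6 mice (log2 1.22, SE 0.16, adjusted p = 8.96e-07 by edgeR). These shares came from 1 to 9 cells per mouse in the udLN. Trbv1 gave 3.72%, 8.91%, 4.56%, 4.80%, 5.26% and 5.83% in the udLN of mice 1, 6, 4, 7, 8 and 36 and 6.18%, 13.5%, 11.8%, 5.89%, 5.77% and 7.62% in their brLN. It was lower in the udLN in all 6 mice (log2 -0.70, SE 0.13, adjusted p = 0.00144 by edgeR). Without mouse 4 the Trbv1 difference was -0.36 and did not pass. Trbv13-3 (0.36), Trbv12-1 (0.36) and Trbv13-2 (-0.39) had the next smallest p-values and did not pass. DESeq2 found 0 of the 21 (0.0432% of all genes), with 3 at an unadjusted p below 0.05 (1.19%). By cells 0 of 6 tested passed, with 0 at an unadjusted p below 0.05 (3.31% of all genes were). Trbv17 and Trbv1 were not among these 6.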

How the data were processed

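The matrix the authors deposited gives UMI counts, with a table of the authors' mouse, node, genotype and cell type of each cell. kallisto 0.46.1, bustools 0.40.0, Scanpy 1.7.0, Seurat and build GRCm38 are named per the submitters' processing notes. No source used here gives how each was used, the cell filters or the doublet handling, and no doublets were removed here. Members and lists were chosen with earlier results of these data known. Counts were summed per mouse, node and class (at least 20 cells, of 6 wells) and tested with edgeR 4.0.16 in R 4.3.3 (limma 3.58.1): filterByExpr, TMM, quasi-likelihood test, Benjamini-Hochberg over all genes, adjusted p below 0.05, with mouse as a block, or pool as a term between genotypes. An SE uses a spread moderated over genes. The text names up to 10 segments per direction past the threshold, or the 5 smallest p where fewer than 5 passed, the 6 Trav and 8 Trbv with the most UMIs, and the members of lists: segments of iNKT and MAIT cells, superantigen-deleted Trbv, Trbv13, Trav9, Trav4, Trav14, Trav12, dv segments, receptor complex and gamma delta genes. Diversity used 200 thinning draws and exact permutation over mice.

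Shares are of all UMIs of the locus. Alternatives were scaling to the locus, DESeq2 1.42.0, no low-count filter, cells in place of UMIs, cells without B cell UMIs, lineages from Cd4 and Cd8 UMIs, 1 fit of both nodes, no pool term, other thinning and each mouse left out. Leading segments, the doubled well, the interaction, and both nodes summed by cells were added after the data were seen. Tested on simulated data, 90% of 2-fold changes were recovered between lineages in the brLN and 86% in the udLN. Between genotypes, 72% (CD4) and 68% (CD8) were recovered in the brLN, and 35% and 31% in the udLN. Unchanged genes called there numbered 2 to 9 per comparison. The changed genes were drawn from all tested genes, with the spread usual at their level. Few cells with many UMIs each were not simulated, so these shares may not hold for V segments. Tables and plots used Python 3.11.15, pandas 2.3.3, numpy 2.4.6, scipy 1.17.1 and matplotlib 3.10.9. Sequences are GENCODE M21 transcripts matched by symbol.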

Additional observations from a re-analysis of the deposited data

Results flagged for a closer look

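The genotype effect differed between nodes for 5 results, by a test of the difference itself (edgeR's quasi-likelihood test of the interaction, udLN minus brLN, mouse as a block, an analysis added after the data were seen). In CD4 T cells 2 of 37 V segments passed (0.0884% of all genes did). Trbv15 differed by 2.33 on the log2 scale (adjusted p = 0.00659), with WT mice 1 and 6 at 0.348% and 1.63% of Trbv UMIs in the udLN and 2.06% and 8.41% in the brLN. Trbv13-3 differed by 1.54 (adjusted p = 0.0279), with the same mice at 2.61% and 1.40% in the udLN, from 6 and 1 cells, and 6.65% and 7.65% in the brLN. Aire-DTR mice stood at 3.80% to 6.04% and 3.14% to 8.16%.

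In CD8 T cells 3 of 24 passed (0.158% of all genes did). Trbv4 differed by -1.41 and Trbv15 by 1.11 (adjusted p = 0.0361 each), and Trbv20 by 2.37 (adjusted p = 0.0433). Trbv20 in the udLN was seen in 1 and 1 cells of WT mice 1 and 6 and 9, 2, 1 and 2 cells of mice 4, 7, 8 and 36. Trbv15 there had 0 UMIs in mouse 6, which had 28 CD8 T cells. By cells with a UMI, 0 of 15 (CD4, 3 at an unadjusted p below 0.05) and 0 of 8 (CD8, 0 at an unadjusted p below 0.05) passed. Of the segments that passed by UMIs, 1 of 2 in CD4 and 0 of 3 in CD8 were tested by cells. In 36 groups of 4 mice that were looked at, 0 held a mouse far from the other 3, where chance gives about 1 in 20.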

How the results depend on the processing

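No paired analysis was possible because the replicate numbers in the labels mark wells of 1 pool, and the same mice are in both wells. This concerns those numbers only: comparisons of lineages, nodes and classes were within mice, with mouse as a block.

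Of 1156 alternative values of named segments, 997 kept direction and side of the threshold, 135 no longer passed, 21 newly passed and 3 reversed: Trbv13-1 between lineages in the udLN (-0.00348), Trbv5 in CD4+ Mem T (0.0183) and Trbv12-2 in the CD8 interaction (0.173), each by cells. For CD4 against CD8 in the brLN (25 segments), 38 passed without the low-count filter (10.8% of all genes did), 8 by cells and 6 by leading segment (17.5% each), and with both nodes summed 13 and 10 (25.2% and 25.1%). In the udLN (20), 12 passed by DESeq2 (7.40% of all genes), 12 with lineages from Cd4 and Cd8 UMIs (12.0%), 31 with both nodes summed (21.2%), and 0 by cells or leading segment (10.8% each), where 6 and 1 were tested. Between genotypes, 4 passed in CD4 brLN (0) without the filter (0.106% of all genes). In CD8 brLN (2), 0 passed by DESeq2, by cells, by leading segment, without cells with B cell UMIs, with the doubled well or without the pool term, where 0.0% to 0.0655% of all genes did, and 1 in 1 fit over both nodes (0.0970%). In CD4 udLN (2), 0 passed by cells or leading segment, and 1 by each of the other alternatives (0.0173% to 0.0576% of all genes) except locus scaling (2). Between nodes, 3 passed in CD4 (0) without the filter (0.832% of all genes) and 1 without cells with B cell UMIs (0.256%). In CD8 (2), 0 passed by DESeq2, cells or leading segment (0.0432%, 0.0% and 0.0% of all genes), and 1 without cells with B cell UMIs (0.0984%). In Treg (9), 5 passed by locus scaling (15.2%), 0 by DESeq2, cells or leading segment (9.5%, 6.60% and 6.61%), and 22 without the filter (6.03%). In CD4+ Mem T (3), 17 passed without the filter (10.5% of all genes), 0 by leading segment (46.9%, with 0 V segments tested) and 5 with the doubled well (20.3%). In CD8+ Mem T (8), 2 passed by DESeq2 (5.88%) and 0 by cells or leading segment (31.7% and 31.8%). Both interactions (2 and 3) gave 0 by cells or leading segment (0.0% of all genes). Mice were not left out of the interaction fits. Counting cells leaves fewer segments above the count filter. Between genotypes, 0 of the 2 CD8 brLN segments and 1 of the 2 CD4 udLN segments were tested by cells. Between nodes, 0 of the 2 CD8 segments were. Other causes were not tested.

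Leaving out each mouse in turn gave 20 to 27 (brLN) and 17 to 20 (udLN) segments between lineages, 0 to 2 (CD4 brLN), 0 to 3 (CD8 brLN), 1 to 3 (CD4 udLN) and 0 to 2 (CD8 udLN) between genotypes, 0 to 1 (CD4) and 1 to 2 (CD8) between nodes, 4 to 10 in Treg (4 without mouse 97), 3 to 7 in CD4+ Mem T (7 without mouse 4, 6 without mouse 8, 5 without mice 1, 6, 36 or 97) and 6 to 10 in CD8+ Mem T. The diversity difference, Aire-DTR minus WT, reversed by leading segment in CD4 udLN (Trav -1.22, Trbv -0.0999) and CD8 brLN (Trav -0.887, Trbv -0.0976). With mice left out it ran from -3.86 to 3.78 (CD4 brLN Trav), -2.78 to 9.84 (CD4 udLN Trav), -2.90 to 2.67 (CD8 brLN Trav), -0.292 to 1.53 (CD8 brLN Trbv) and -2.07 to 7.78 (CD8 udLN Trav). The detection difference in percentage points reversed without thinning for Trbv in brLN (CD4 -1.01, CD8 0.594). With mice left out it ran from -2.15 to 0.525 (CD4 brLN Trav), -0.614 to 2.40 (CD4 brLN Trbv), -0.476 to 2.73 (CD8 brLN Trav), -2.61 to 0.690 (CD8 brLN Trbv), -3.98 to 1.34 (CD8 udLN Trav) and -4.15 to 2.85 (CD8 udLN Trbv). The exact test could not reach 0.05 in any of these comparisons, so their p-values say nothing about stability.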

Other observations

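Trav11n, a pseudogene relative of the invariant natural killer T cell segment, had 14 UMIs in 10 T cells. Outside the 5 T cell classes, 32.9% of 73 myeloid cells and 29.6% of 54 NK cells had a Trbv UMI, above the 7.94% of B cells, with median depths of 3381, 3639.5 and 2261 UMIs. Of 92 B cells with a leading Trbv segment of at least 3 UMIs, 44.6% had a second Trbv segment, against 33.7% of 3814 alpha beta T cells. Doublets and free RNA were not tested as a source.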
